A study of Pimephales promelas with 32 samples.

Results

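Exposure to bifenthrin was compared with exposure to copper sulfate in larval fathead minnows (Pimephales promelas), freshwater fish used in toxicity testing. The comparison used the 21 larvae whose titles name bifenthrin (10 larvae) or copper sulfate (11 larvae), of 32 larvae in the series, and the 11 control larvae gave the level of each gene without a chemical. Bifenthrin was given at 3.2 µg/L and copper sulfate at 40 µg/L for 48 h, and all larvae, controls included, were kept at 25 °C in 100 mL of water with 0.002% DMSO as vehicle. The protocol describes the larvae as 96 h post hatch at the start, whereas the age label gives 4 dpf and 48 h post hatch. Per the protocol, 10 larvae were placed in each of 5 beakers per treatment and at least 2 larvae per beaker were used. With 10 or 11 larvae per group from 5 beakers, larvae that shared a beaker count here as separate replicates. The labels do not tie larvae to beakers, so this sharing could not be modelled. The p-values are too small if larvae of 1 beaker resemble each other. RNA came from the whole body of 1 larva per library.

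Bifenthrin is a pyrethroid insecticide, and pyrethroids keep the sodium channels that start action potentials open for longer, which produces repetitive firing and tremor. Dissolved copper is taken up across the gill, where it disturbs sodium balance, and it can load cells with reactive oxygen. Larvae of this age still grow, and most of their tissues add cells by division.

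Total counts of the 21 larvae ranged from 11440484 to 16416225. Their mean was 13604284 ± 1560446 with bifenthrin and 14132989 ± 1613666 with copper sulfate (SD, n = 10 and 11; permutation test, 2-sided, p = 0.447). The 10 most abundant genes held 10.6 ± 0.623% of counts with bifenthrin and 10.1 ± 0.771% with copper sulfate (SD, permutation test, 2-sided, p = 0.158). The scaling factors had means of 0.985 ± 0.0185 and 0.983 ± 0.0427 (SD, same test, p = 0.932). Copper sulfate larva 2 had the lowest factor, 0.877, and the next lowest was 0.954, in copper sulfate larva 13. Values per larva are given as normalised count rates (CPM, scaled by TMM). A gene was counted as different where the adjusted p of edgeR's quasi-likelihood test, with sequencing lane as a term, was under 0.05. Each log2 fold change below is bifenthrin minus copper sulfate unless stated, with its SE.

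The count table names genes by model number and by the accession of a similar protein. In the text a symbol stands for the model that carries the accession of that protein, in capitals for a human protein, with a capital first letter for a mouse protein and in lower case for a zebrafish protein. All values are RNA levels, and protein levels were not measured. Identities were assigned from general knowledge for 397 proteins, carried by 472 of the 16622 tested models with a mean count of at least 50. They are called certain below, but they were not checked against a reference. These proteins were sorted into 20 classes, and each count of class members is to be read against all 16622 models. In bifenthrin larvae 16.6% of these were higher and 19.7% lower, 36.4% in either direction, and the larvae of the 2 chemicals had ranges apart in 2.74% (higher) and 1.81% (lower).

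Of 21174 genes tested, 6730 (31.8%) differed between the chemicals: 3123 were higher in bifenthrin larvae (14.7%) and 3607 were lower (17%). Most differences were small: the median absolute log2 fold change of the genes that differed was 0.46, and 65.5% of them differed by less than 1.5-fold. Past a 2-fold difference lay 798 genes (3.77%), 440 of them higher (2.08%) and 358 lower (1.69%). Past 4-fold lay 55 higher genes (0.260%) and 11 lower genes (0.0520%). For 478 genes (2.26%) the lowest bifenthrin larva lay above the highest copper sulfate larva, and for 313 genes (1.48%) the highest bifenthrin larva lay below the lowest copper sulfate larva. With genes split by mean count into 4 parts of near-equal size, from least to most abundant, 144, 91, 90 and 115 were more than 2-fold higher and 131, 117, 74 and 36 more than 2-fold lower.

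Transcripts of DNA replication and cell division were mostly lower in bifenthrin larvae. Of 22 models in the class of DNA replication and cell division, 13 were lower in bifenthrin larvae, 3 were higher and 6 did not pass the test, with a median log2 fold change of -0.68, against -0.02 for all models. PCNA, the sliding clamp that holds DNA polymerase on its template, had 30.2 CPM in the lowest, 44.5 in the median and 58.3 in the highest bifenthrin larva, against 89.7, 140 and 181 CPM in copper sulfate larvae. The ranges did not overlap, and controls had a median of 173 CPM. The log2 fold change of PCNA was -1.62 ± 0.15 (adjusted p = 4.3e-10). MKI67, the Ki-67 antigen that coats chromosomes of dividing cells, had 28.2, 50.3 and 59.7 CPM in the lowest, median and highest bifenthrin larvae, against 72.3, 104 and 154 CPM in copper sulfate larvae. These ranges were apart as well, with a log2 fold change of -1.18 ± 0.13 (adjusted p = 1.9e-08).

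RNAs of proteins that prepare or carry out DNA synthesis were lower as well. E2F1, a transcription factor that switches on genes of the S phase, had a log2 fold change of -1.35 ± 0.14. DUT, which clears dUTP before DNA synthesis, had -1.19 ± 0.14, and rrm2, a subunit of the enzyme that makes deoxynucleotides, had -1.0 ± 0.12. DNMT1, which copies DNA methylation onto new strands, had -1.05 ± 0.10. For all 4 the ranges of bifenthrin and copper sulfate larvae did not overlap. RNAs of mitosis proteins were lower too: the spindle motors KIF15 (-1.32 ± 0.17) and KIFC1 (-1.02 ± 0.16), the kinetochore proteins KNL1 (-1.04 ± 0.17) and CENPF (-0.99 ± 0.15) and the spindle protein CKAP2 (-1.0 ± 0.17). Of these 5, only KIFC1 had ranges that did not overlap. The adjusted p-values of these 9 models lay between 1.5e-09 and 3.2e-05.

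The class was not uniform. INCENP, a subunit of the chromosomal passenger complex, was higher in bifenthrin larvae (190, 232 and 261 CPM in the lowest, median and highest bifenthrin larvae, against 145, 156 and 179 CPM in copper sulfate larvae; log2 fold change 0.52 ± 0.07, adjusted p = 3.9e-07). Both models of CIT, a kinase of cytokinesis that is also known from neurons, were higher, at 0.51 ± 0.10 and 0.29 ± 0.08. A second CENPF model gave 0.21 ± 0.09 and did not pass the test (adjusted p = 0.068).

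Both chemicals were also set against the same controls. For PCNA, bifenthrin minus control gave -2.07 ± 0.15 (adjusted p = 1.5e-12), and copper sulfate minus control gave -0.45 ± 0.14 (adjusted p = 0.051). MKI67 gave -1.71 ± 0.13 for bifenthrin and -0.53 ± 0.13 for copper sulfate against the same controls (adjusted p = 6.1e-12 and 0.0087). Of the 22 models, 13 were lower in bifenthrin larvae than in controls and 4 were higher, against 22.5% and 20.3% of all models. Of the 22, 7 were lower in copper sulfate larvae than in controls and 0 were higher, against 2.09% and 4.13% of all models. In whole larvae, fewer dividing cells and less of these RNAs per dividing cell cannot be told apart. Larvae of 1 group differed among themselves: of the 9 cell-cycle models in the plot of each chemical against control, bifenthrin larva 7 was the lowest of its group in 5 and copper sulfate larvae 7 and 10 were the lowest of theirs in 4 each.

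**Figure D1:**
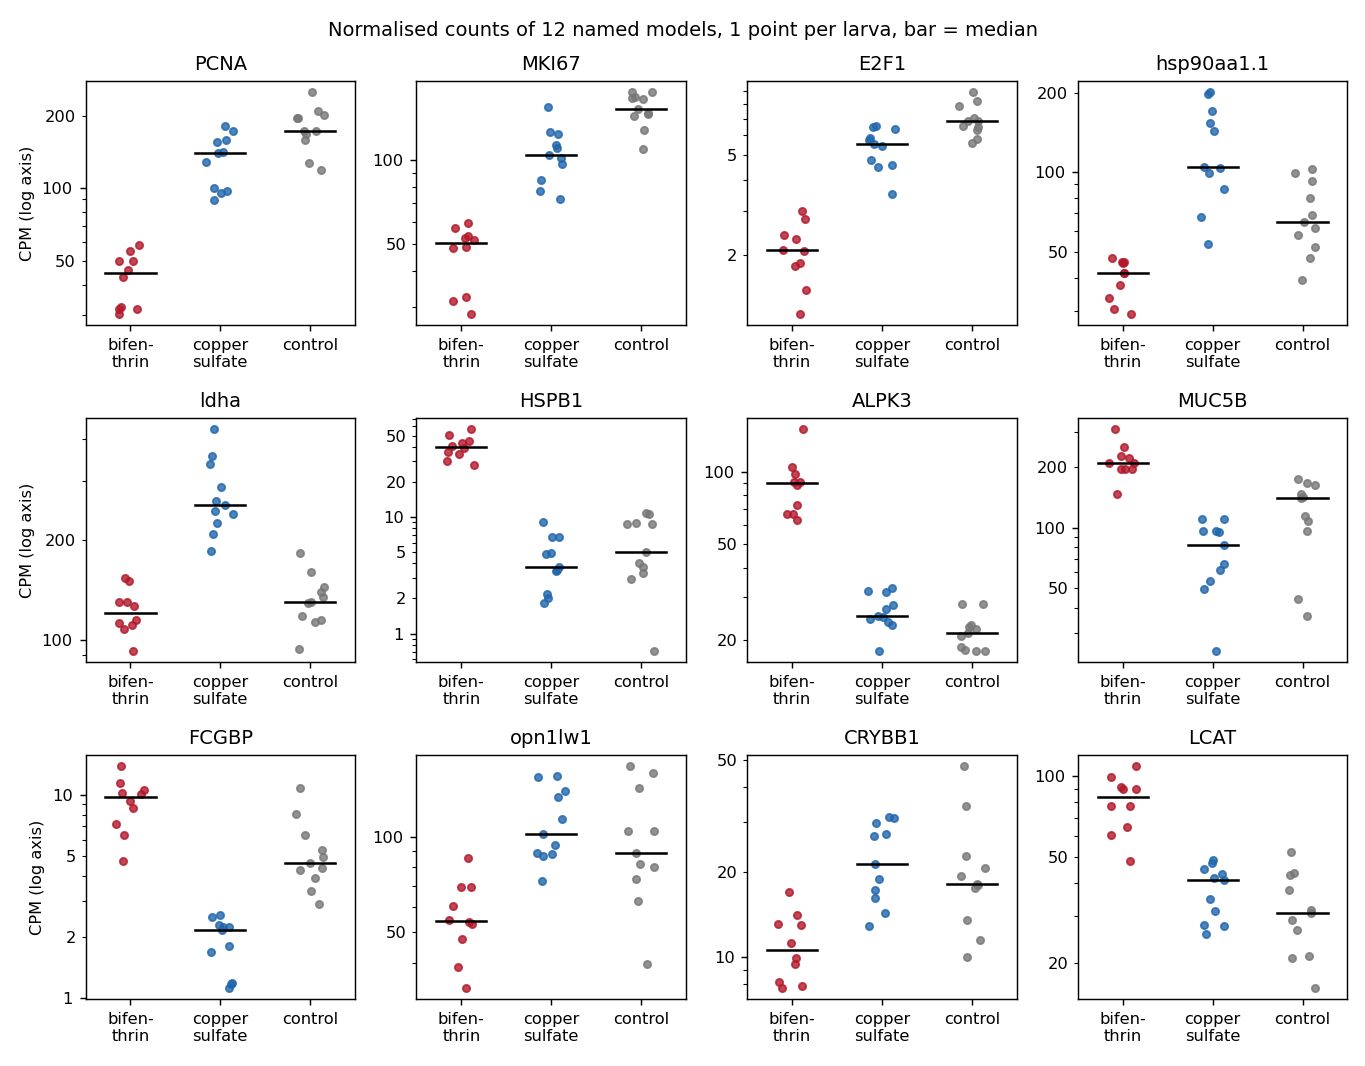
CPM of 12 models in each larva, on log axes, with bifenthrin, copper sulfate and control larvae from left to right, 1 point per larva and a bar at the median. PCNA, MKI67, E2F1, hsp90aa1.1 and ldha show every bifenthrin larva below every copper sulfate larva, HSPB1, ALPK3, MUC5B and FCGBP show every bifenthrin larva above, and opn1lw1, CRYBB1 and LCAT overlap at the edges.

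Some RNAs of stress proteins were higher in bifenthrin larvae and some were lower. The class of stress response proteins and their regulators held 23 models, with a median log2 fold change of 0.11. In bifenthrin larvae 9 were higher (39.1%, against 16.6% of all models). The 5 lower ones (21.7%) were near the share of all models (19.7%). HSPB1, a small heat shock protein that binds unfolded proteins and stabilises actin and muscle filaments, had 27.9, 39.9 and 56.7 CPM in the lowest, median and highest bifenthrin larvae, against 1.82, 3.76 and 9.12 CPM in copper sulfate larvae. Every bifenthrin larva lay above every copper sulfate larva, and controls had a median of 5.05 CPM. Its log2 fold change was 3.18 ± 0.31 (adjusted p = 3.5e-09), a 9.06-fold difference, the largest increase among models with a certain identity.

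The RNA of a second heat shock protein moved the other way. The model of hsp90aa1.1, a chaperone that in zebrafish is needed to fold myosin in muscle, had 29.1, 41.6 and 47.5 CPM in the lowest, median and highest bifenthrin larvae, against 53.7, 105 and 201 CPM in copper sulfate larvae and a median of 64.8 CPM in controls. The ranges of the 2 chemicals did not overlap, and the log2 fold change was -1.59 ± 0.18 (adjusted p = 2.8e-08). Controls lay between the chemicals: bifenthrin minus control gave -0.83 ± 0.17 (adjusted p = 0.00027) and copper sulfate minus control gave 0.76 ± 0.17 (adjusted p = 0.0046). The constitutive relative hsp90ab1 had a log2 fold change of 0.09 ± 0.08 and did not pass the test (adjusted p = 0.39).

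Regulators of the stress response went in both directions. DUSP1, a phosphatase that switches off stress-activated MAP kinases, gave 1.24 ± 0.31 (adjusted p = 0.0023), with 9 of 10 bifenthrin larvae above all copper sulfate larvae. The NF-κB inhibitors TNFAIP3 and NFKBIA gave 0.51 ± 0.09 and 0.34 ± 0.08. NR1I2, the pregnane X receptor that senses foreign chemicals, gave 0.49 ± 0.09, and Cyp1a1, an oxidase of foreign aromatic compounds, gave 0.42 ± 0.14 (adjusted p = 0.019). NFE2L2, the regulator of antioxidant genes also called NRF2, gave 0.27 ± 0.10 (adjusted p = 0.048). KLF10, a transcription factor induced by TGF-beta, was lower in bifenthrin larvae, with 5.53, 7.72 and 10.8 CPM in the lowest, median and highest bifenthrin larvae, against 8.5, 13.8 and 37.9 CPM in copper sulfate larvae (-0.95 ± 0.21, adjusted p = 0.00074).

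Superoxide dismutase 1 (sod1), an enzyme that needs copper and removes superoxide, was lower in bifenthrin larvae, with 125, 148 and 198 CPM in the lowest, median and highest bifenthrin larvae, against 161, 206 and 291 CPM in copper sulfate larvae. The ranges overlapped, and the log2 fold change was -0.50 ± 0.10 (adjusted p = 0.00026). Against control it was -0.72 ± 0.10 for bifenthrin (adjusted p = 6.5e-07) and -0.23 ± 0.10 for copper sulfate (adjusted p = 0.2). PDIA3, a disulfide isomerase of the endoplasmic reticulum, gave -0.75 ± 0.15 and ATM, a kinase that answers DNA breaks, gave -0.59 ± 0.12.

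Of 19 models of energy and intermediary metabolism, 2 were higher in bifenthrin larvae and 5 were lower, with a median of -0.11. Lactate dehydrogenase A (ldha), which regenerates NAD in glycolysis, had 92.4, 121 and 153 CPM in the lowest, median and highest bifenthrin larvae, against 185, 254 and 429 CPM in copper sulfate larvae and a median of 130 CPM in controls. The ranges of the chemicals were apart, with a log2 fold change of -1.16 ± 0.12 (adjusted p = 8.1e-09). Copper sulfate minus control gave 1.05 ± 0.12 (adjusted p = 4.9e-07), and bifenthrin minus control gave -0.11 ± 0.12 (adjusted p = 0.51). The second subunit type, ldhba, gave -0.11 for bifenthrin against copper sulfate and did not pass the test (adjusted p = 0.53). PPARGC1B, a coactivator of mitochondrial genes, was higher in bifenthrin larvae, with 33.6, 37.9 and 46.3 CPM in the lowest, median and highest bifenthrin larvae, against 20, 24.5 and 30.5 CPM in copper sulfate larvae. Its ranges were apart too (0.62 ± 0.08, adjusted p = 5.5e-07).

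Cytochrome c, the electron carrier of the respiratory chain, had 212, 254 and 307 CPM in the lowest, median and highest bifenthrin larvae, against 230, 305 and 418 CPM in copper sulfate larvae and a median of 143 CPM in controls. The groups overlapped broadly, with 1 bifenthrin larva below all copper sulfate larvae, and the log2 fold change was -0.32 ± 0.09 (adjusted p = 0.0053). Against control it was 0.79 ± 0.09 for bifenthrin and 1.11 ± 0.09 for copper sulfate (adjusted p = 6.5e-09 and 3.2e-10). Within lane 6 alone the difference between the chemicals was -0.33 (adjusted p = 0.12) and within lane 7 alone it was -0.29 (adjusted p = 0.12). XDH, xanthine dehydrogenase of purine breakdown, was higher in bifenthrin larvae by 0.90 ± 0.23 (adjusted p = 0.0028). Its values of 0.82 in lane 6 and 1.0 in lane 7 did not pass the test there (adjusted p = 0.061 and 0.065).

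Some models of mucus proteins, which belong to the class of collagens and matrix proteins, were higher in bifenthrin larvae. FCGBP, a large protein of intestinal mucus, had 4.71, 9.72 and 13.8 CPM in the lowest, median and highest bifenthrin larvae, against 1.12, 2.16 and 2.56 CPM in copper sulfate larvae. The ranges were apart, and controls had a median of 4.63 CPM. The log2 fold change was 2.26 ± 0.20 (adjusted p = 1.6e-10). Both chemicals differed from control here, with 0.81 ± 0.19 for bifenthrin (adjusted p = 0.00065) and -1.45 ± 0.20 for copper sulfate (adjusted p = 7.9e-06). A second FCGBP model gave 1.20 ± 0.24 (adjusted p = 0.00023), and another gave 0.31 ± 0.21 and did not pass the test (adjusted p = 0.28). Reads could be shared between such similar models.

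MUC5B, a gel-forming mucin, had 147, 209 and 309 CPM in the lowest, median and highest bifenthrin larvae, against 24.3, 82.3 and 111 CPM in copper sulfate larvae and a median of 141 CPM in controls. Its ranges were apart, with a log2 fold change of 1.51 ± 0.23 (adjusted p = 5.5e-06). The 3 models of MUC5AC, another gel-forming mucin, gave 0.19, 0.16 and -0.01 and did not pass the test. LCT, a lactase-type disaccharidase of the intestinal brush border, had 3.69, 25.1 and 110 CPM in the lowest, median and highest bifenthrin larvae, against 0.875, 1.97 and 10.3 CPM in copper sulfate larvae. Its log2 fold change was 3.17 ± 0.77 (adjusted p = 0.002), but controls spread from 0.641 to 67.3 CPM and neither chemical differed from them (adjusted p = 0.38 for bifenthrin and 0.064 for copper sulfate). In lane 6 alone LCT gave 2.69 with an adjusted p of 0.11. The other 3 models in the class of gut digestion, a second LCT model and the disaccharidases MGAM and SI, lay between 0.12 and 0.41 and did not pass the test.

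Of 28 models of lipid handling, 10 were higher and 2 lower in bifenthrin than copper sulfate larvae, with a median of 0.04. LCAT, the plasma enzyme that esterifies cholesterol on lipoproteins, had 48.2, 83.7 and 109 CPM in the lowest, median and highest bifenthrin larvae, against 25.7, 41.1 and 48.8 CPM in copper sulfate larvae. In 9 of 10 bifenthrin larvae the value lay above all copper sulfate larvae, and the log2 fold change was 1.1 ± 0.17 (adjusted p = 5.8e-06). NPC1L1, the intestinal cholesterol transporter, gave 1.09 ± 0.26 (adjusted p = 0.0016), and its lowest copper sulfate larva, at 4.87 CPM, lay well under the next, at 17.7 CPM. That larva, replicate 5, was also the lowest of its group for XDH, at 3.72 CPM against 9.62 CPM in the next. Against control, NPC1L1 did not pass the test with bifenthrin (0.46 ± 0.26, adjusted p = 0.17) or copper sulfate (-0.64 ± 0.25, adjusted p = 0.15). ACACB, which makes malonyl-CoA at mitochondria, gave 0.84 ± 0.12, and Mttp, which loads lipid onto apolipoprotein B, gave 0.59 ± 0.12. The 2 lower models were Eci1 (-0.35 ± 0.08), of fatty acid oxidation, and ACOXL (-0.36 ± 0.14).

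**Figure D2:**
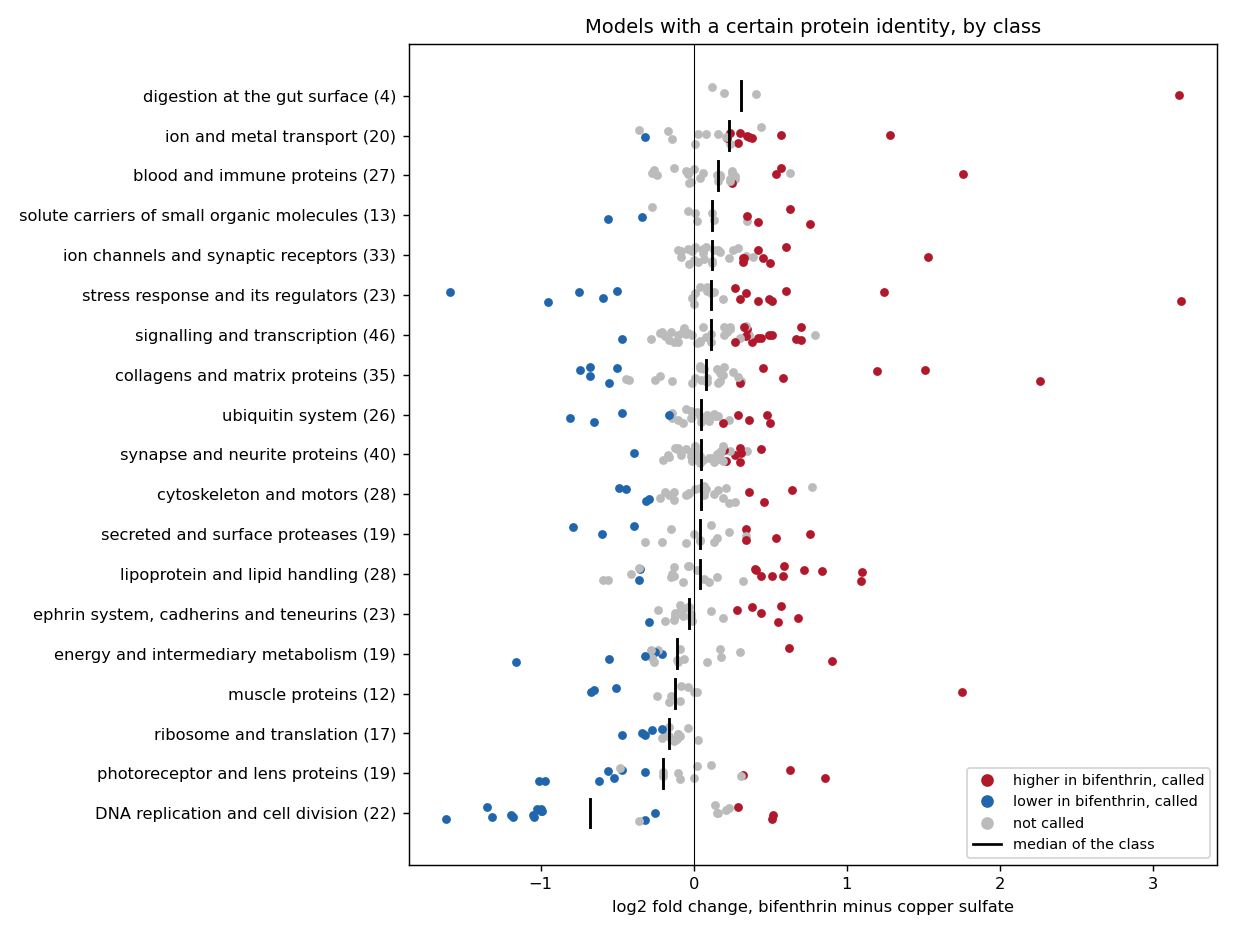
Log2 fold change, bifenthrin minus copper sulfate, of each model with a certain protein identity, in 19 classes ordered by their median (number of models in brackets; transposon polyproteins are left out). Red and blue points passed the test as higher and lower in bifenthrin larvae, grey points did not, and black bars are class medians. DNA replication and cell division lies lowest, with a median of -0.68, and digestion at the gut surface, with 4 models, highest at 0.31.

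None of the 33 models of ion channels and synaptic receptors was lower, against 19.7% of all models, and 8 were higher, with a median log2 fold change of 0.12. PKD1, polycystin 1, a membrane protein that pairs with a cation channel, had 17.8, 20.9 and 29.7 CPM in the lowest, median and highest bifenthrin larvae, against 5.01, 7.73 and 10.4 CPM in copper sulfate larvae. The ranges were apart, with a log2 fold change of 1.53 ± 0.13 (adjusted p = 1e-10), and copper sulfate larvae did not pass the test against controls (0.24 ± 0.13, adjusted p = 0.35). A second PKD1 model gave 0.60 ± 0.08. Of the pacemaker channels, 1 model each of Hcn2 and HCN4 gave 0.50 ± 0.11 and 0.42 ± 0.13, whereas a model of human HCN2 (-0.08 ± 0.07) and a second one of HCN4 (0.34 ± 0.18) did not pass the test. The stretch-gated channel PIEZO1 gave 0.45 ± 0.08, and the potassium channels KCNH7 and KCNB2 gave 0.33 ± 0.07 and 0.32 ± 0.08. Calcium channel subunits did not pass the test, with CACNA1B at 0.01, CACNA1G at 0.06 and CACNA1I at -0.03, nor did the muscle acetylcholine receptor subunit CHRNA1 at -0.04. No model in this class was assigned the identity of a sodium channel subunit. Any such model among those tested was therefore not singled out.

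Of 20 models of ion and metal transport, 9 were higher in bifenthrin larvae and 1 lower, with a median of 0.23. The lower one was FXYD2, a regulator of the sodium pump, at -0.32 ± 0.13, with an adjusted p that rounds to 0.05 and lay just under the threshold. SLC30A8, a zinc transporter of secretory granules in mammals, had 3.93, 5.80 and 8.78 CPM in the lowest, median and highest bifenthrin larvae, against 0.897, 2.46 and 4.20 CPM in copper sulfate larvae. In 10 of 11 copper sulfate larvae it was below all bifenthrin larvae, and the log2 fold change was 1.28 ± 0.24 (adjusted p = 7.4e-05). SLC39A8, an importer of zinc and manganese, was higher in both of its models, at 0.57 ± 0.14 and 0.24 ± 0.09. SLC12A5, the chloride exporter of neurons, gave 0.36 ± 0.07. ATP7B, the copper-exporting pump of liver, had 2.89, 4.15 and 5.68 CPM in the lowest, median and highest bifenthrin larvae, against 3.36, 5.13 and 8.06 CPM in copper sulfate larvae, and its log2 fold change of -0.36 ± 0.15 did not pass the test (adjusted p = 0.071).

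RNAs of synapse and neurite proteins differed little. Of 40 models, 7 were higher and 1 was lower, and the largest absolute log2 fold change of those that passed was 0.44. The higher ones included the active-zone proteins Bsn (0.30 ± 0.11), ERC2 (0.27 ± 0.10) and RIMS1 (0.21 ± 0.08 and 0.20 ± 0.08 in its 2 models). The lower one was Dcx, doublecortin of young migrating neurons, at -0.39 ± 0.07 (adjusted p = 7.7e-05). Syt1, the calcium sensor of synaptic vesicles, gave 0.01 ± 0.08.

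Muscle had 1 model that set the chemicals far apart. ALPK3, an alpha-kinase of heart and skeletal muscle, had 63.4, 89.8 and 151 CPM in the lowest, median and highest bifenthrin larvae, against 17.9, 25.2 and 33.0 CPM in copper sulfate larvae and a median of 21.4 CPM in controls. The ranges were apart, with a log2 fold change of 1.75 ± 0.12 (adjusted p = 9.4e-13). Of the other 11 muscle models, 3 were lower, namely 1 model of IGFN1 (-0.67 ± 0.13), SYNPO2 (-0.65 ± 0.15) and KY (-0.51 ± 0.13), which are proteins of the Z-disc region. A second IGFN1 model (-0.08 ± 0.12) did not pass the test, nor did TCAP (-0.15 ± 0.19) and MYPN (0.02 ± 0.13), which also lie at the Z-disc, or the myosin MYH7 (-0.16 ± 0.13).

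Of 19 models of photoreceptor and lens proteins, 7 were lower in bifenthrin larvae, 3 were higher and 9 did not pass the test, with a median of -0.20. The cone opsin opn1lw1, the pigment of red-sensitive cones, had 33.2, 54.2 and 86 CPM in the lowest, median and highest bifenthrin larvae, against 72.5, 102 and 156 CPM in copper sulfate larvae. In 9 of 10 bifenthrin larvae it lay below all copper sulfate larvae, with a log2 fold change of -0.97 ± 0.20 (adjusted p = 0.00033). Controls spread from 39.6 to 167 CPM, with a median of 88.7 CPM. The green and blue cone opsins opn1mw1 and opn1sw2 gave -0.62 ± 0.15 and -0.47 ± 0.11, and each missed the threshold in 1 lane alone. The ultraviolet opsin opn1sw1 gave -0.20 ± 0.12 (adjusted p = 0.19), and the further cone opsins opn1mw4 and opn1lw2 gave -0.09 ± 0.48 and -0.48 ± 0.24 and did not pass the test. CRYBB1, a crystallin of the lens, had 7.73, 10.6 and 17 CPM in the lowest, median and highest bifenthrin larvae. Copper sulfate larvae had 12.9, 21.3 and 31.3 CPM (-1.01 ± 0.23, adjusted p = 0.001). Controls of CRYBB1 spread from 9.98 to 47.3 CPM, with a median of 18.1 CPM. In lane 6 alone CRYBB1 missed the threshold (-0.84, adjusted p = 0.054). The higher models were PPEF2, a photoreceptor phosphatase, in both of its models (0.63 ± 0.16 and 0.32 ± 0.09), and 1 model of the cone channel CNGA3 (0.86 ± 0.13), whose other model was lower (-0.52 ± 0.15).

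Of 46 models of signalling and transcription, 13 were higher and 1 was lower, with a median of 0.11; RGS3, which shortens G-protein signals, had 72.9, 81.3 and 91.7 CPM in the lowest, median and highest bifenthrin larvae, against 43.3, 50.1 and 60.3 CPM in copper sulfate larvae. Its ranges were apart at a log2 fold change of 0.70 ± 0.06 (adjusted p = 1.5e-10). Ranges were also apart for CAMTA2 (0.70 ± 0.08) and HIVEP1 (0.67 ± 0.11), which are transcription factors, and for IGF1R (0.51 ± 0.08), the receptor of insulin-like growth factor. TNFRSF12A, the Fn14 receptor that is induced by tissue injury, was 3.38-fold higher, with 8.65, 19.8 and 33.8 CPM in the lowest, median and highest bifenthrin larvae, against 2.92, 5.21 and 10.6 CPM in copper sulfate larvae (1.76 ± 0.24, adjusted p = 8.4e-07). It was 1 of 4 higher and 0 lower models among 27 of blood and immunity. In the matrix class, 6 of 35 models were higher, FCGBP (2 models) and MUC5B among them, and 5 were lower, including PLOD1 (-0.68 ± 0.13), which hydroxylates collagen. These shares, 17.1% and 14.3%, stand beside 16.6% and 19.7% of all models. Of basement membrane collagens, 1 of 3 models of Col4a1 was lower (-0.50 ± 0.10; the other 2 gave 0.05 and 0.04), as was 1 of 2 of Col18a1 (-0.55 ± 0.11; the other gave 0.20, and a model of human COL18A1 gave -0.42), and none of these others passed the test. ADAMTS1, a secreted metalloproteinase, gave 0.76 ± 0.09 with ranges apart.

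The translation machinery had 0 higher and 5 lower models of 17, with a median of -0.16. The lower ones were the initiation factors EIF5A (-0.47 ± 0.10), EIF2S2 (-0.34 ± 0.07 in 1 of its 2 models, 0.03 ± 0.22 in the other) and EIF5B (-0.27 ± 0.09), GARS1 (-0.32 ± 0.10) and the ribosomal protein RPS14 (-0.21 ± 0.08). Of 26 ubiquitin models, 5 were higher, among them HERC2 (0.48 ± 0.06), and 4 were lower, among them ANAPC5 (-0.81 ± 0.14), a subunit of the complex that drives exit from mitosis, whose ranges were apart. Cytoskeleton and motors had 3 higher and 4 lower models of 28, secreted proteases 4 and 3 of 19, solute carriers 4 and 2 of 13, and cadherins and the ephrin system 6 and 1 of 23. For these classes and the ubiquitin models, the shares over all models were 16.6% higher and 19.7% lower. Transposon polyproteins had 0 higher and 2 lower models of 18.

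**Figure D3:**
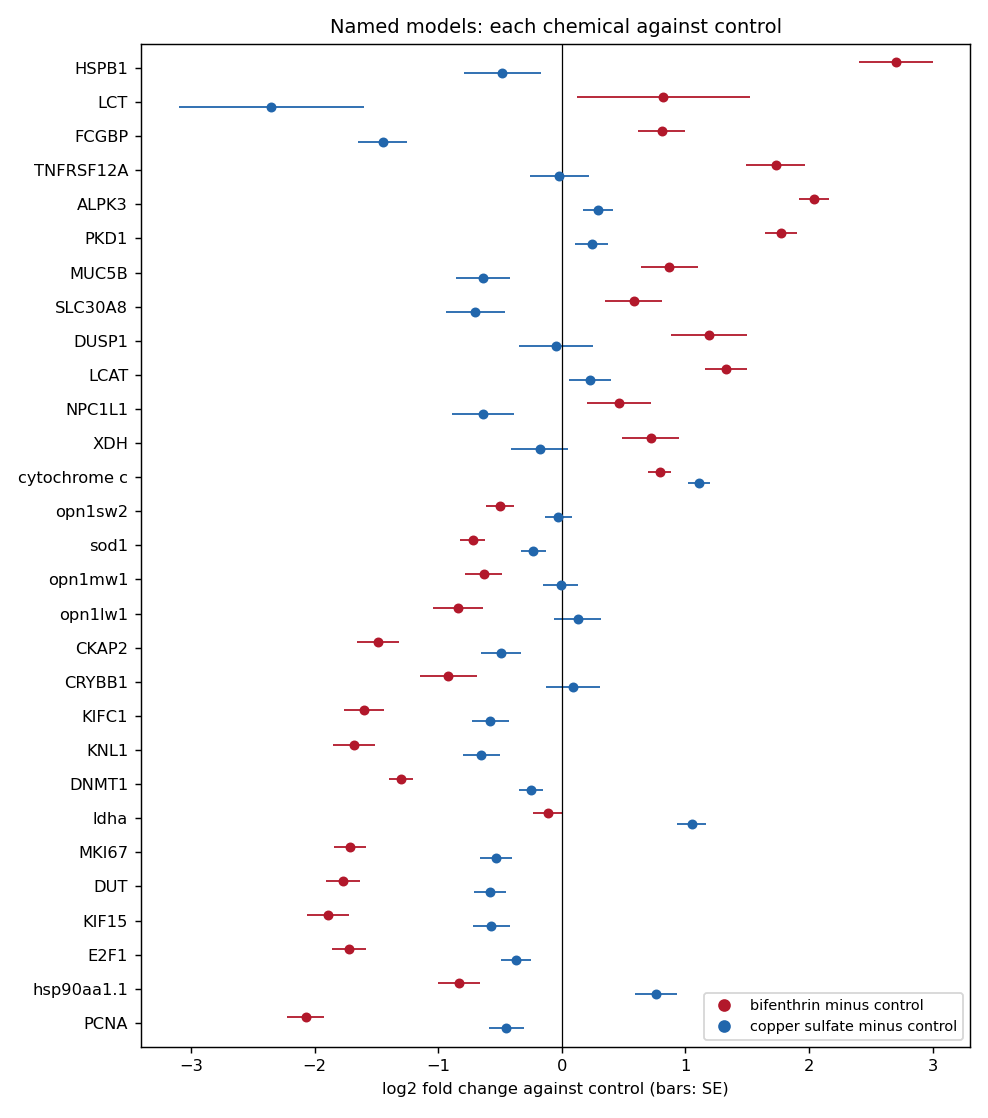
Log2 fold change against control (points, with SE bars) of the 29 named models with a symbol, for bifenthrin (red) and copper sulfate (blue); both use the same controls. The models are ordered by the difference between the chemicals, from HSPB1 at the top (2.70 for bifenthrin and -0.48 for copper sulfate) to PCNA at the bottom (-2.07 and -0.45).

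Among the 440 genes more than 2-fold higher in bifenthrin larvae the control mean was nearer to the copper sulfate mean in 390, and among the 358 genes more than 2-fold lower it was nearer in 316. In the other 50 and 42 genes it was nearer to the bifenthrin mean. Nearer does not mean equal. Of the 440 genes, the control mean lay between the chemicals in 215, below both in 218 and above both in 7. Of the 358 genes, it lay between the chemicals in 86, above both in 264 and below both in 8. These positions were not counted over all genes tested. Summed, the 440 higher genes took 2.92 ± 0.468% of normalised counts in bifenthrin larvae (SD, n = 10), 1.03 ± 0.159% in copper sulfate larvae and 1.08 ± 0.151% in controls (SD, n = 11 each). These genes were chosen as higher in the same bifenthrin larvae, so their larger share there than in copper sulfate larvae follows from the choice. The median SD of log2 CPM within groups was 0.44 with bifenthrin and 0.47 with copper sulfate for these genes, and 0.25 and 0.29 over all genes tested, of which 37.9% had the larger SD with bifenthrin.

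Models without a certain identity held the widest separations. These were sought among models with a mean count of at least 50, with gaps taken on log2 CPM with a prior count of 2. FMg012815 (accession A9JRG7) had 7.01, 13.5 and 21.3 CPM in the lowest, median and highest bifenthrin larvae. Copper sulfate larvae had 0, 0.26 and 0.705 CPM, the widest gap between the groups of any higher model. FMg012815 reached that mean count only through bifenthrin larvae, with means of 0.331 CPM in copper sulfate larvae and 0.235 CPM in controls. FMg005786 (A4JYN9) had the smallest p of the higher models, at 3.92 ± 0.20 (adjusted p = 1.4e-15). It too reached a mean count of 50 only through bifenthrin larvae, with means of 3.13 CPM in copper sulfate larvae and 2.99 CPM in controls. FMg003985 (T1ECV9) had 0.688, 2.06 and 5.85 CPM in the lowest, median and highest bifenthrin larvae, against 11.5, 20 and 27.7 CPM in copper sulfate larvae, the widest gap of any lower model. FMg015439 (A3KMS0) had the smallest p of the lower models, at -1.92 ± 0.13 (adjusted p = 2.4e-13).

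The 2 sequencing lanes held different larvae, because no larva lies in both. The labels do not tie larvae to beakers. If the 10 bifenthrin larvae came 2 from each of 5 beakers, as the protocol implies, at least 1 beaker lay in both lanes, since each lane held 5. Agreement between the lanes is therefore not that of separate exposures. Genes that differed by more than 2-fold were chosen from the larvae of lane 6 alone, 354 higher and 233 lower. In the larvae of lane 7, 350 of the 354 were higher and 226 of the 233 were lower, 301 and 174 of them past the test there, where 8.57% of all genes were higher and 9.08% were lower. The median log2 fold change of the higher genes was 1.41 in lane 7 and 1.34 in lane 6. Chosen in lane 7 and read in lane 6, 489 of 502 genes were higher and 437 of 441 were lower, with medians of 1.12 and -0.90 against 1.37 and -1.31 in the lane that chose them. A chemical by lane interaction was found for 0 genes with edgeR (1042 at an unadjusted p under 0.05) and for 0 with limma-voom (1085).

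**Figure D4:**
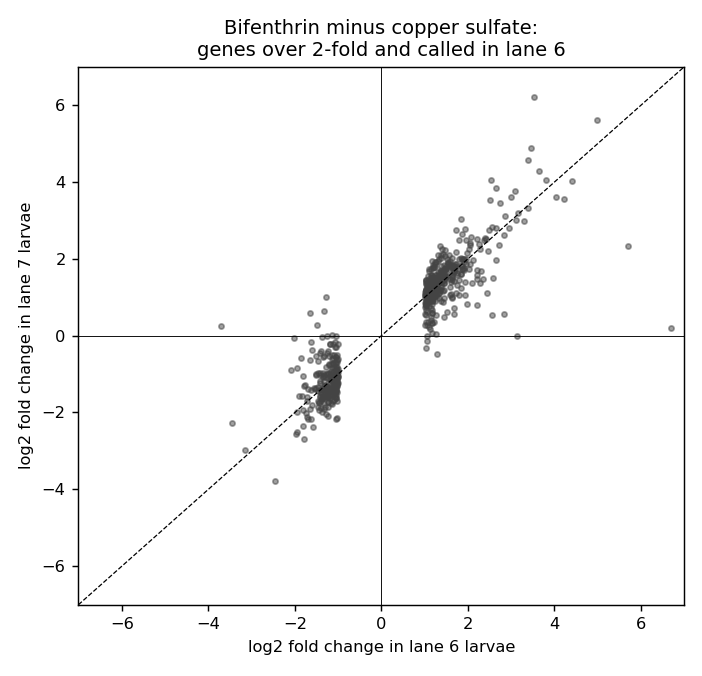
Log2 fold change, bifenthrin minus copper sulfate, in lane 6 larvae (x axis) and lane 7 larvae (y axis) for the 587 genes that differed by more than 2-fold in lane 6; each point is a gene and the dashed line marks equal values. Nearly all points lie in the quadrants of equal sign, 350 of 354 on the right and 226 of 233 on the left.

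Single larvae were placed with the genes chosen in the other lane, by the share of these genes in which a larva lay on the bifenthrin side of the midpoint between the chemicals. The share was 77.2% in the lowest, 89.7% in the median and 93.6% in the highest bifenthrin larva, against 5.28%, 10.4% and 28.8% in copper sulfate larvae. The groups did not overlap, and controls, which took no part in choosing the midpoint, lay between 10.2% and 23.4%. The copper sulfate larva nearest to the bifenthrin side was replicate 7, and the bifenthrin larvae nearest to the other side were replicate 11 at 77.2% and replicate 4 at 79.7%.

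**Figure D5:**
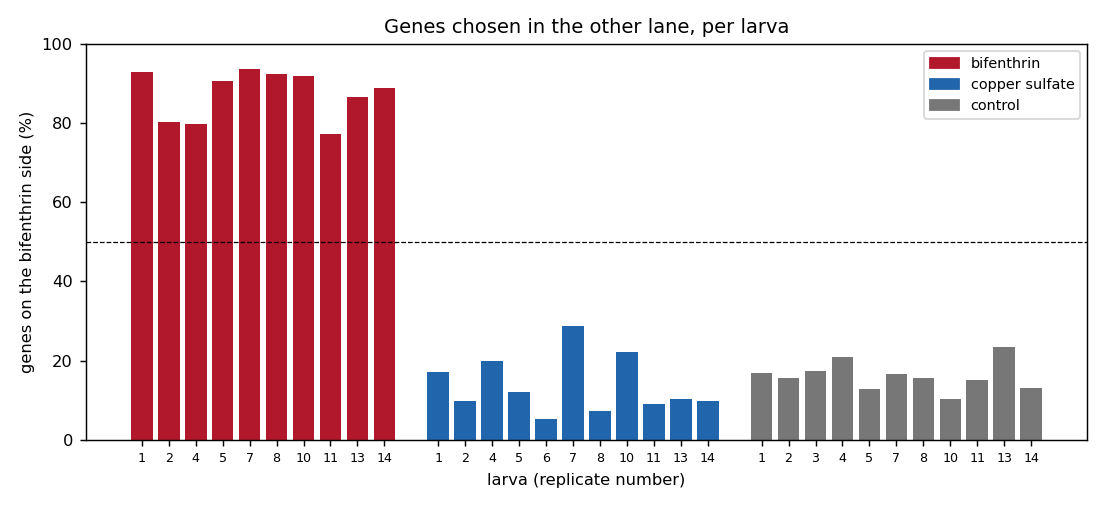
Share of the genes chosen in the other lane (943 genes for lane 6 larvae, 587 for lane 7 larvae) in which each larva lies on the bifenthrin side of the midpoint, 1 bar per larva, with the dashed line at 50%. Bifenthrin larvae lie between 77.2% and 93.6%, copper sulfate larvae between 5.28% and 28.8% and controls between 10.2% and 23.4%.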

How the data were processed

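Per the labels, each library held 1 larva: polyadenylated RNA was selected from 250 ng of total RNA. The authors deposited 1 table of raw counts per gene model and larva, unnormalised. Tools named in the submitters' processing notes are STAR, limma and bcl2fastq 2.19.1. The sources used here do not give the genome build, the counting tool or its use of strand, and reads of near-identical models may be split. Every column was assigned by its label, and 0 were left unused. Totals over all 32 larvae ran from 10655113 to 17993699 counts.

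Genes passing filterByExpr (21174 of 26150, 99.9% of counts) were scaled by TMM and fitted in edgeR 4.0.16 (R 4.3.3), all 32 larvae together with group and lane as terms, by the robust quasi-likelihood F test with Benjamini-Hochberg adjustment. The SE is the absolute log2 fold change divided by the square root of F. Log2 CPM used a prior count of 2. Single measures were tested by 100000 permutations. The common biological coefficient of variation was 0.226. No library of the 21 bifenthrin and copper sulfate larvae was a repeat of another. The lowest chi-square per degree of freedom over their 210 pairs was 9.93. Control libraries were not in these pairs. The test was checked on simulated data in which larvae were independent and few genes changed. Such data cannot show how the p-values hold where larvae share a beaker.

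The RefSeq gene table matched 0 models. Of 27 lists built mainly on enzyme class numbers, 8 had a model in the table and 7 a tested model with a mean count of at least 50. Protein identities were therefore assigned to 398 accessions from general knowledge of UniProt, without looking at values but after the table was seen, and sorted into classes. The comparison, members and lists were chosen with earlier results of these data known. Named models had a mean count of at least 50 and were the 12 largest differences in each direction with a certain identity, up to 3 per direction and list, the smallest p and widest gap in each direction, and cytochrome c; further models, named as examples of their class, were chosen after their values were seen. Alternatives were DESeq2 1.42.0, limma-voom (limma 3.58.1), other size factors, filters and terms, single lanes, a replicate block and leaving out each larva.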

Additional observations from a re-analysis of the deposited data

Results flagged for a closer look

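In bifenthrin larvae, 1 named model had a larva far from the rest of its group. ALPK3 reached 151 CPM in larva 1, against 105 CPM in the next highest, a gap of 0.527 of the group's range. Such a gap passes Dixon's 95% limit for 10 larvae, which chance does in about 1 of 20 groups, and 33 named models were examined. The lowest bifenthrin larva, at 63.4 CPM, still lay above the highest copper sulfate larva, at 33.0 CPM. Groups of 11 larvae were not examined in this way.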

How the results depend on the processing

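All 33 named models kept their direction under every alternative run, and 1375 of 1386 values kept their side of the threshold. The other 11 were single-lane values that missed it, for LCT, DUSP1, NPC1L1, XDH, CRYBB1, cytochrome c, sod1, opn1mw1 and opn1sw2; no larva left out ended a call. In lane 6 alone 2619 genes differed, and in lane 7 alone 3737, against 6730 in all larvae; these fits hold fewer larvae. Certain identities that differed numbered 84 and 96 in these lanes, against 162. Leaving out each larva in turn gave 6132 to 6947 genes that differed, 739 to 883 that differed by more than 2-fold, 147 to 166 certain identities and 12 to 13 lower models of cell division. Of the named models, 30 differed from control in bifenthrin larvae (29 to 30 with a larva left out). In copper sulfate larvae 10 did (9 to 13 with a larva left out), 18 with limma-voom, 5 in lane 6 and 4 in lane 7. The cause of the limma-voom value was not tested. Most named models were chosen by their difference between the chemicals in these same larvae. Their counts against control, and their keeping of direction and threshold in refits of these larvae, follow in part from that choice. Over all 16622 models, 20.3% were higher and 22.5% lower than control with bifenthrin. With copper sulfate these shares were 4.13% and 2.09%. DESeq2 called 6951 genes, 6628 of them shared. A replicate block in place of lane gave 6065 genes, 5912 shared, and changed no call of a named model. Whether equal replicate numbers pair the larvae is not known. Deviations of the 10 pairs correlated between -0.19 and 0.25, with 5 over 0.1. In their lane, 4 of 10 bifenthrin larvae correlated best with their own number. These values were not tested against chance.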

Other observations

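Some accessions were carried by several models that moved apart. The 2 models of zebrafish beta-actin (actb2) gave 0.36 ± 0.09 and -0.44 ± 0.12 (edgeR adjusted p = 0.0034 and 0.0051), and those of SLC6A13, a GABA transporter, gave 0.42 ± 0.13 and -0.34 ± 0.10 (adjusted p = 0.013 and 0.0068), so an accession alone does not give a direction. These examples were chosen after their values were seen.

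Large differences also lay in models with consecutive numbers. Of 17873 pairs of tested models with consecutive numbers, 53 (0.297%) held 2 models that were both more than 2-fold higher or both more than 2-fold lower in bifenthrin larvae. HSPB1 was in such a pair with FMg006455 (1.07), MKI67 with FMg006408 (-1.21) and KNL1 with FMg005472 (-1.15). Whether consecutive numbers mark neighbouring genes is not stated in the sources used here, and reads shared between such models were not tested. The share among other pairs of models was not computed, so 0.297% cannot be called high or low.

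A further heat shock model was named after its values were seen. FMg017635, which carries accession Q9JMC3 of mouse Dnaja4, a DNAJ co-chaperone, averaged 10.3 CPM in bifenthrin larvae, 54.6 CPM in copper sulfate larvae and 22.2 CPM in controls. Its log2 fold change was -2.33 ± 0.27 (edgeR adjusted p = 7.1e-08), and the ranges of the chemicals were apart, as for hsp90aa1.1.

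Few proteins of the lists built on enzyme classes could be found. Glycolysis had 1 tested model, 0 of it different; the respiratory chain 1, lower (cytochrome c); antioxidant enzymes 1, lower (sod1). Protein folding had 2, of which 1 was lower (hsp90aa1.1), and phototransduction 6, of which 3 were lower, with a median of -0.47. None of the 4 listed models of calpains and cathepsins and none of the 3 listed models of protein phosphatases passed the test. These lists are incomplete: the phosphatases DUSP1 and PPEF2, higher in bifenthrin larvae, are not among those 3. The list of heme synthesis and haemoglobin had 4 models in the table and 0 tested with a mean count of at least 50.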
